A study of Oncorhynchus masou masou with 2 samples.

Results

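The contigs described here are the long ones, of 500 bases or more, whose reads in granulosa layers of masu salmon ovaries were more abundant with forskolin by 2-fold or more. A contig is a stretch of transcript put together from overlapping reads. There were 200 such contigs among the 97645 listed, or 200 of the 1931 contigs of this length (10.4%). They were chosen by their own counts in the comparison that follows, so that their folds are a description and carry no test. A contig was kept when its count plus 0.5, divided by the library's total count, was at least 2-fold higher with forskolin than without, given at least 20 reads summed over both libraries. This minimum left out none of the 1931, since the lowest sum was 136 reads.

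The forskolin group was 1 library of layers incubated with forskolin, and the control group was 1 library of layers with no agent. The sources used here do not give the dose, how long the layers were incubated, the age of the fish, or how many fish were pooled. The forskolin library held 4327458 counted reads and the control library 4746085. With 1 library per group there was no replicate check, no p-value is given, and any other difference between the libraries cannot be told apart from forskolin. The 95% intervals given below are exact. They express counting error alone, treat each read as a separate molecule and take the scaling by library totals as given. Reads without molecular identifiers need not be separate molecules, so the intervals can be too narrow.

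Granulosa cells form the inner layer of somatic cells around the fish oocyte. In salmonid fish, luteinizing hormone acts on the follicle through its receptor and cyclic AMP. The outer theca layer then supplies a precursor steroid, and a hydroxysteroid dehydrogenase of the granulosa layer turns it into the maturation-inducing hormone, which brings the oocyte to resume meiosis. Forskolin activates adenylyl cyclase directly and so raises cyclic AMP without the hormone. The series asked how mRNA levels differ between the layers with and without forskolin, in a study of that dehydrogenase.

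None of the 200 contigs could be given a gene name, as the files give contigs serial numbers only, with neither sequences nor gene names. What follows therefore describes contigs by class, length and level, and says nothing of which enzymes or receptors they encode. Markers of granulosa, theca, oocyte or blood cells could not be assigned either, so the labelled cell layer was not checked here. In these bulk layers, fewer cells of a type and less RNA per cell cannot be told apart. Several contigs can come from 1 transcript, and the 200 contigs are not 200 genes.

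The 200 contigs made up 10.4% of the 1931 long contigs, and 294, or 15.2%, were at least 2-fold lower. The 200 thus formed 40.5% of the long contigs past 2-fold in either direction. At 4-fold the balance was turned, with 113 contigs higher and 87 lower, so that 56.5% of those past 4-fold were higher. Scaling by trimmed-mean (TMM) factors, not totals, put 235 long contigs past 2-fold upward and 224 past 2-fold downward, which made the upward share 51.2%. All 200 were among the 235, which had to be so, as this scaling raises every ratio by the same factor. The median log2 ratio of the long contigs was 0.01 under TMM scaling and -0.19 under library totals. Contigs of every length over the minimum of reads had 11.8% at least 2-fold higher, against 10.4% of the long contigs. These shares were not matched for class of contig name or for read depth. Forskolin singlets, a class described below, were 9% of the 200. They were 31.6% of the 1605 contigs at least 2-fold higher among the 16892 of 200 bases or more. That set is not the contigs of every length behind the 11.8%. Without such matching, the pooled share cannot say whether long contigs held an unusual share of contigs at least 2-fold higher.

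Reads of the 200 contigs made up 6.35% of the forskolin library (6.33 to 6.37%) and 1.31% of the control library (1.302 to 1.322%). Of all reads on long contigs, they took 25.3% in the forskolin library and 5.37% in the control library. Their summed reads per 1000000 counted reads (RPM) were 4.84-fold higher with forskolin. The intervals do not cover the choice of these contigs by their counts.

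**Figure D1:**
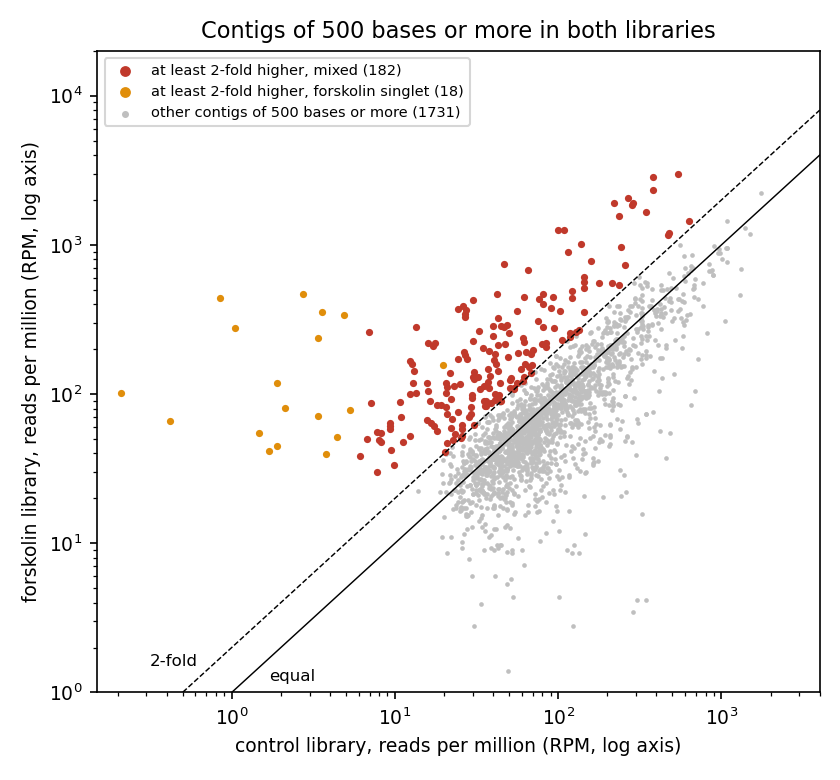
Each point is a contig of 500 bases or more, with its level in the forskolin library (vertical, RPM) against the control library (horizontal, RPM), both on log axes. The 182 mixed and 18 forskolin singlet contigs at least 2-fold higher with forskolin lie on or above the dashed line, and the other 1731 contigs lie below it.

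The levels of the 200 contigs spanned a wide range in both libraries. In the forskolin library they ran from 30.0 to 2966 RPM with a median of 150.4, and in the control library from 0.211 to 634 RPM with a median of 35.0. Per 1000 bases of contig, the median was 202 RPM in the forskolin library and 51.2 RPM in the control library. Over all 1931 long contigs, the medians per 1000 bases were 97.1 RPM in the forskolin library and 109.6 RPM in the control library. In the control library most of the 200 were thus among the less abundant long contigs. Of the quintile of long contigs lowest per 1000 bases in the control library, 31.8% (123 of 387) were at least 2-fold higher, against 3.37% (13 of 386) of the highest quintile. The control count is part of the ratio, so this order follows in part from the choice itself.

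All 200 had reads in both libraries. The fewest forskolin reads were 130, whereas 14 contigs had fewer than 20 control reads and 2 had 3 or fewer. The folds of those 14 rest on a handful of control reads, and their intervals are wide. Without these 14, 186 contigs were at least 2-fold higher, with a median of 4.17-fold.

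The median fold of the 200 was 4.41, with quartiles of 2.71 and 7.39, and the median over all long contigs was 0.877. Fold sizes of 2 to under 4 were held by 87 contigs, 4 to under 8 by 72, 8 to under 16 by 25 and 16 to under 32 by 4. The remaining 12 were at least 32-fold higher, 5 of them at least 100-fold. The 72 contigs of 4 to under 8-fold took the most reads, 48.6% of all forskolin reads on the 200, and the 87 contigs under 4-fold took 29.9%. The interval of the ratio lay at or above 2-fold for 171 of the 200, and the lowest lower bound was 1.58-fold.

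**Figure D2:**
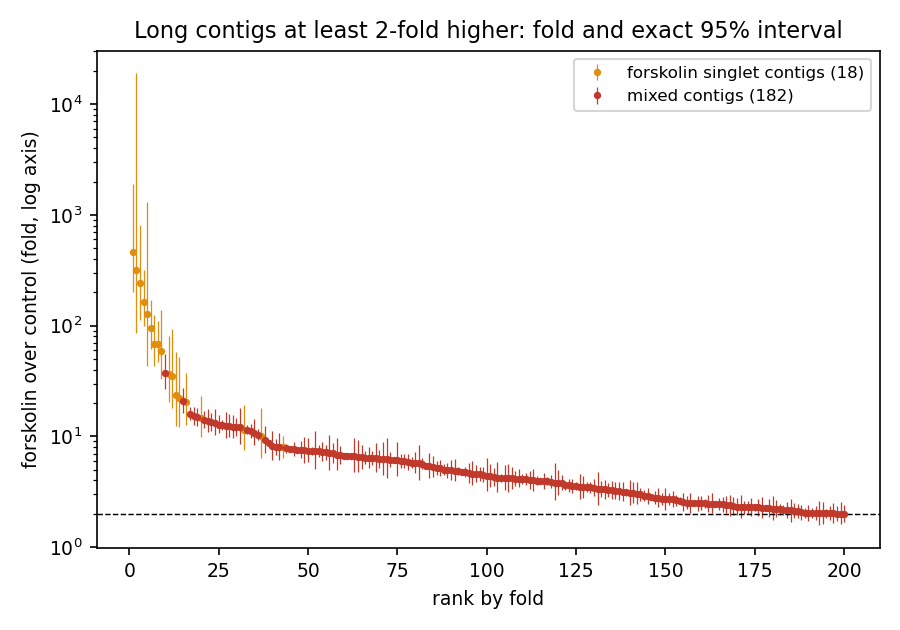
Points give the ratio of forskolin over control (log axis) for each of the 200 contigs in order of fold, with exact 95% intervals as vertical lines, and the dashed line is 2-fold. The 18 forskolin singlets hold most of the left end, where intervals are widest, and the mixed contigs run down to 2.004-fold.

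Contigs nearest the threshold were separated by less than their intervals. Just inside it were contigs of 536, 566 and 571 bases at 2.004, 2.007 and 2.007-fold. Just outside it were contigs of 1109, 560 and 501 bases at 1.997, 1.99 and 1.98-fold. The first of these inside had 89.2 RPM in the forskolin library and 44.5 RPM in the control library, with an interval of 1.69 to 2.38-fold. Those contigs can thus fall on either side of the limit by counting error.

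The largest folds belonged to contigs named as forskolin singlets, a class that carries the library's name and is no independent evidence of direction. Contig names fall into mixed contigs, forskolin singlets and control singlets, and the sources used here do not say how these classes arose. Of the 200, 182 (91.0%) were mixed, 18 (9%) were forskolin singlets and 0 were control singlets. Over all 1931 long contigs, 98.1% were mixed, 1.04% (20 contigs) were forskolin singlets and 0.829% (16 contigs) were control singlets. The other 2 long forskolin singlets lay at 0.977 and 0.900-fold, and 13 of the 16 long control singlets were at least 2-fold lower.

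Singlets and mixed contigs differed mainly in their control reads. The 18 singlets had a median of 170 RPM per 1000 bases in the forskolin library and 3.73 in the control library. The 182 mixed contigs had a median of 208 RPM per 1000 bases in the forskolin library and 56.3 in the control library. Without division by length, the forskolin medians were 90.7 RPM in the singlets and 157.6 RPM in the mixed contigs. The choice by fold used the control reads, so the difference between the classes is a description. The 18 singlets had a median fold of 48.0, with a range of 7.96 to 462, and the 182 mixed contigs a median of 4.15, with a range of 2.004 to 37.1. Of the 16 contigs at least 16-fold higher, 14 were singlets.

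The largest fold was that of contig fors-singlet_contig_005456, a forskolin singlet of 559 bases. It had 1897 reads in the forskolin library, or 438 RPM (419 to 459), and 4 reads in the control library, or 0.843 RPM. With 0.5 added to each count this was 462-fold, with an interval of 203 to 1911-fold. It was the 33rd highest of the 1931 long contigs per 1000 bases in the forskolin library, and 1928th in the control library. Pseudocounts of 2 and 5 put it at 347 and 232-fold, inside the interval.

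The next largest fold was that of a forskolin singlet of 546 bases with 437 forskolin reads and 1 control read, 320-fold with an interval of 85.6 to 18973. A single control read leaves this fold almost unbounded above. A singlet of 805 bases had 1205 forskolin reads and 5 control reads, 240-fold (113 to 816). The longest of the singlets, at 1111 bases, had 2021 forskolin reads and 13 control reads, 164-fold (99.5 to 321). The lower bounds of these last 2 stood well above those of all mixed contigs. A singlet of 552 bases had 287 forskolin reads and 2 control reads, 126-fold (43.2 to 1306).

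A further 4 singlets lay between 59.6 and 95.6-fold, at 119 to 352 RPM in the forskolin library and 1.90 to 4.85 RPM in the control library. They were 506, 702, 912 and 651 bases long. The singlet of 912 bases had 340 RPM in the forskolin library and 4.85 RPM in the control library, 68.6-fold (46.5 to 111). The other 9 singlets lay between 7.96 and 36.4-fold. The lowest of them, of 535 bases, had 678 forskolin reads and 93 control reads, the highest control count of the 18.

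Among the mixed contigs, 95 of 182 were at least 4-fold higher, 24 at least 8-fold and 2 at least 16-fold. The highest was a contig of 787 bases with 1134 forskolin reads and 33 control reads, 37.1-fold (26.7 to 55.0). A contig of 790 bases followed with 1225 forskolin reads and 64 control reads, 20.8-fold (16.3 to 27.4). These were the mixed contigs past 16-fold. A contig of 564 bases had 747 RPM in the forskolin library and 46.8 RPM in the control library, 15.9-fold (13.9 to 18.4), and was the only contig among both the 20 largest folds and the 20 highest forskolin RPM. Per 1000 bases this contig was the 10th highest of the long contigs in the forskolin library and the 1293rd in the control library.

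The 20 contigs with the highest forskolin RPM and the 20 with the largest folds had 1 contig in common. Each list is a small part of the 200, so the small overlap does not set them apart as groups. The 20 with the highest forskolin RPM were all mixed, were 531 to 3138 bases long and held 48.2% of the forskolin reads of the 200. RPM favours long contigs, as a longer contig collects more reads at the same level. The folds of these 20 ran from 2.27 to 15.9 with a median of 6.62, against a median of 4.41 for all 200. A group of 10 lay between 5 and 9-fold, 3 at 10-fold or more, 4 under 3-fold, and the other 3 between 3.98 and 4.88-fold.

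**Figure D3:**
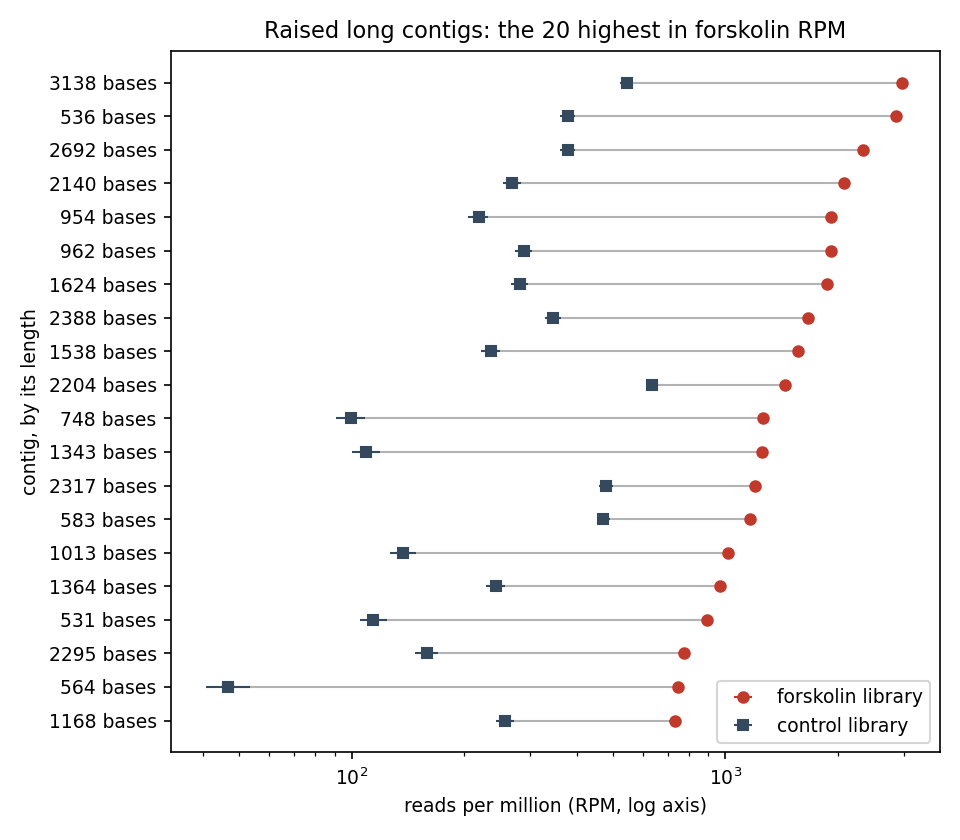
The 20 contigs of the 200 with the highest forskolin RPM, labelled by length, with the forskolin library as red circles and the control library as blue squares (RPM, log axis, exact 95% intervals as bars, often smaller than the symbol). Forskolin values run from 732 to 2966 RPM, and the contig of 2204 bases, at 2.27-fold, has the shortest gap.

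The highest of all was contig cont-fors-mixed_contig_06494, also the longest of the 200 at 3138 bases. It had 12834 reads in the forskolin library, or 2966 RPM, and 2582 reads in the control library, or 544 RPM, which is 5.45-fold (5.23 to 5.69). It had the highest RPM of the 1931 long contigs in the forskolin library and was 59th in the control library. Per 1000 bases, where length plays no part, it was 22nd in the forskolin library and 445th in the control library.

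Per 1000 bases the first place was that of a contig of 536 bases, at 5337 RPM per 1000 bases in the forskolin library and 707 in the control library. Its counts were 12379 forskolin reads and 1799 control reads, 7.54-fold (7.18 to 7.93). It was the highest long contig on this scale in the forskolin library and the 29th in the control library. The next highest on this scale were contigs of 954 bases (2010 RPM per 1000 bases in the forskolin library and 229 in the control library), of 583 bases (2000 and 808) and of 962 bases (1988 and 300). The contig of 583 bases was already the 18th highest in the control library and was 2.47-fold higher (2.35 to 2.60), whereas that of 954 bases was 8.77-fold higher (8.23 to 9.37).

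The 9 highest by forskolin RPM, at 1566 to 2966 RPM, held 30.2% of the forskolin reads of the 200 and lay at 4.79 to 8.77-fold. This span depends on where the list was cut, as the 10 highest reached down to 2.27-fold. In the control library the same 9 lay between 218 and 544 RPM. They were 536 to 3138 bases long, and whether any of them come from 1 transcript was not tested. The tenth, of 2204 bases, had 1440 RPM in the forskolin library and 634 RPM in the control library, 2.27-fold (2.17 to 2.37), the highest control RPM of the 200. Contigs of 748 and 1343 bases had forskolin levels near it, at 1258 and 1250 RPM, but control levels of 99.5 and 109 RPM. Their folds were 12.6 (11.5 to 13.9) and 11.4 (10.5 to 12.6).

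The 200 contigs were 10.4% of the long contigs. They held more of the top places in the forskolin library than in the control library, as the choice by fold makes likely. Of the 10 long contigs with the highest RPM, 9 were among the 200 in the forskolin library and 0 in the control library. Of the 100 highest, 36 were among the 200 in the forskolin library and 4 in the control library. Per 1000 bases, the numbers among the 100 highest were 42 in the forskolin library and 2 in the control library. These places use the counts that chose the contigs and are given as a description.

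Length beyond the minimum of 500 bases was not used in the choice. The median length of the 200 was 654 bases, with quartiles of 567 and 866.5, and that of the other 1731 long contigs was 652, with quartiles of 561 and 846. The share of contigs at least 2-fold higher lay between 9.62% at 600 to 699 bases and 11.8% at 800 to 999 bases over 6 ranges of length. In the range of 1500 bases and more it was 11.6%, or 11 of 95. The share thus stayed near the 10.4% of all long contigs at every length.

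The 5 longest of the 200, of 3138, 2692, 2388, 2317 and 2295 bases, were all mixed. The contig of 2692 bases had 2338 RPM in the forskolin library and 379 RPM in the control library, 6.17-fold (5.87 to 6.49). That of 2388 bases had 1659 RPM in the forskolin library and 346 RPM in the control library, 4.79-fold (4.54 to 5.06). These folds lay on either side of that of the longest contig, 5.45-fold (5.23 to 5.69), and the intervals did not overlap. The contig of 2317 bases had 1202 RPM in the forskolin library and 479 RPM in the control library, 2.51-fold (2.39 to 2.64). The contig of 2295 bases had 775 RPM in the forskolin library and 159 RPM in the control library, 4.88-fold (4.51 to 5.29).

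The share also varied with the mean level of both libraries, per 1000 bases, which unlike length is made of the counts that chose the contigs. Of the quintile of long contigs with the highest mean level, 17.6% (68 of 386) were among the 200 and 11.4% were at least 2-fold lower. Of the lowest quintile, 6.72% (26 of 387) were among the 200 and 21.7% were at least 2-fold lower. The share among the 200 was larger in each quintile than in the one below it. The forskolin count is part of this mean, and no test of the order was made. By control level alone the order was the reverse, from 31.8% in the lowest quintile to 3.37% in the highest.

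**Figure D4:**
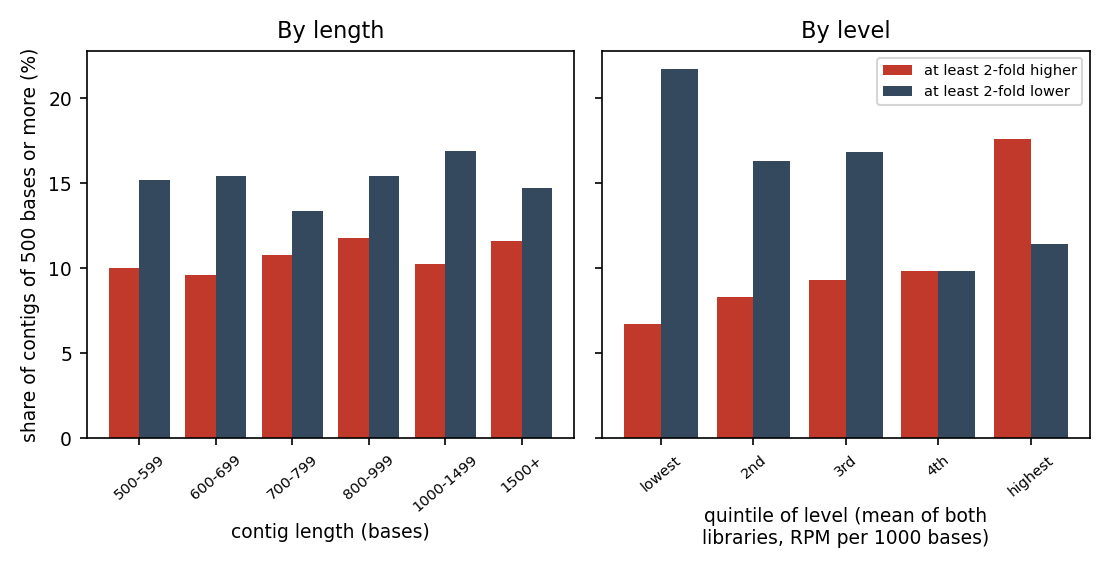
Bars give the share of long contigs (%) at least 2-fold higher (red) and at least 2-fold lower (blue) with forskolin, by contig length on the left and by quintile of the mean level of both libraries (RPM per 1000 bases) on the right. By length the red bars stay between 9.62% and 11.8%, and by level they go from 6.72% in the lowest quintile to 17.6% in the highest. The level, unlike length, is made of the counts that chose the contigs.

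Among mixed contigs, the share at least 2-fold higher differed by the number in the contig's name, which the choice did not use. Mixed contigs carry numbers from 1 to 40013, and the sources used here do not say what the order means. Like the class, the number therefore cannot be taken as independent evidence of direction. Of the 469 long mixed contigs numbered 20001 to 27500, 115 (24.5%) lay past 2-fold upward and 23 (4.90%) past 2-fold downward. Of the other 1426, 67 (4.70%) lay past 2-fold upward and 258 (18.1%) past 2-fold downward. These numbers were thus held by 24.7% of the long mixed contigs and by 63.2% of those at least 2-fold higher. The limits of this run were set after its values had been seen, and no test was made. They follow runs of 2500 numbers and do not place the start of the rise.

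In runs of 2500 numbers, the share was 25%, 26.0% and 22.0% in the 3 runs from 20001 to 27500. In the 8 runs before them it lay between 2.25% and 12.3%, and in the 5 runs after them between 2.44% and 6.25%. Some of the outer runs hold few contigs, down to 22. The median fold of all long mixed contigs was 1.11 in the joined run and 0.803 outside it. Of the long mixed contigs within 2-fold, the 331 in the run had a median fold of 1.03 and the 1101 outside it 0.866.

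The contigs at least 2-fold higher inside this run had a median fold of 4.22, against 3.81 for those outside. Per 1000 bases, those inside had a median of 186 RPM in the forskolin library and 45.7 in the control library. Those outside had a median of 286 RPM in the forskolin library and 72.2 in the control library. The run thus held more of the contigs, at somewhat lower levels. Of the 24 mixed contigs at least 8-fold higher, 19 were in the run, and of the 20 contigs highest in forskolin RPM, all mixed, 10 were. For comparison, the run held 63.2% (115 of 182) of all mixed contigs at least 2-fold higher.

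**Figure D5:**
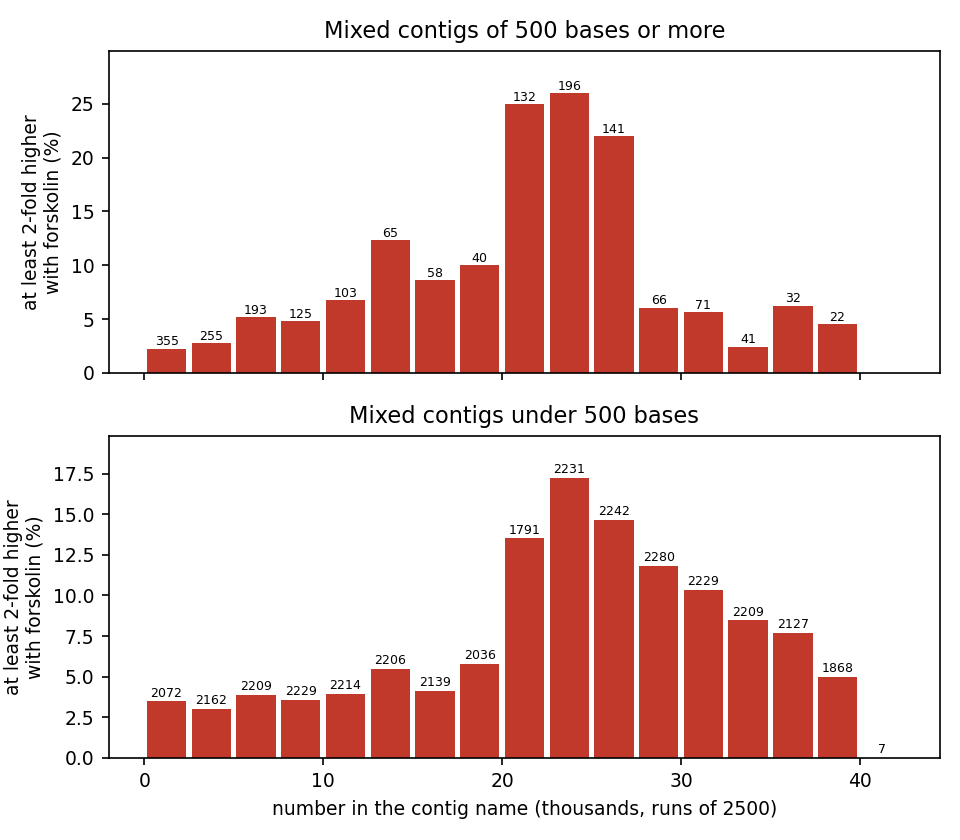
Bars give the share (%) of mixed contigs at least 2-fold higher with forskolin in runs of 2500 contig numbers, for contigs of 500 bases or more above and for shorter contigs with at least 20 summed reads below, with the number of contigs over each bar. The bars from 20001 to 27500 reach 22.0% to 26.0% in the upper panel. Both panels step up at the first of these bars, which does not place the step within its 2500 numbers.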

How the data were processed

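Messenger RNA of granulosa layers was sequenced in 2 libraries, 1 per group. The authors deposited a whole-number read count per contig for each library, with its length, per the file headers. The authors also deposited RPM values, which equalled the count over the sum of all counts within rounding to 2 decimals. CASAVA and Bowtie are named in the submitters' processing notes without a role. The sources used here name no assembler and do not say how a read matching more than 1 contig was counted, which could move counts between like contigs.

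Of 97645 contigs, 9 had no value and were left out. Groups came from the agent in the labels. Per contig, the ratio of forskolin over control was taken from counts plus 0.5 over library totals. Intervals of ratios (without the 0.5) and of shares were Clopper-Pearson, and those of RPM exact Poisson, all at 95%. A count of 3 is 0.693 RPM in the forskolin library and 0.632 RPM in the control library. Levels per 1000 bases are RPM divided by contig length. TMM and upper-quartile factors came from edgeR 4.0.16 in R 4.3.3. No test was made. The calculation of ratios and intervals was tried on simulated counts with counting error alone, which says nothing of variation between libraries.

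The contigs and settings were chosen with earlier results of these data known. By the rule for named contigs, names were printed for the largest fold and the highest forskolin RPM. The 20 largest folds, the 20 highest forskolin RPM, the 5 longest and 3 contigs on each side of the threshold were described by length or as a range. Contig names are serial numbers, which a gene table cannot match, so the gene and marker lists gave no values. Tables were made with pandas 2.3.3, numpy 2.4.6 and scipy 1.17.1 under Python 3.11.15, and figures with matplotlib 3.10.9.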

Additional observations from a re-analysis of the deposited data

How the results depend on the processing

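With library totals, a minimum of 20 reads and 500 bases, 200 contigs were at least 2-fold higher, with a median of 4.41-fold, 6.35% of forskolin reads and 9% forskolin singlets. Contigs of 200 bases or more gave 1605 of 16892 contigs, 3.75-fold, 12.5% of reads and 31.6% singlets. Contigs of 1000 bases or more gave 34 of 320 contigs, 5.17-fold, 2.70% and 2.94%. These counts rest on different numbers of contigs, against 1931 at 500 bases or more. A limit of 4-fold gave 113 contigs, 7.03-fold, 4.45% and 15.9%, and one of 1.5-fold gave 288 contigs, 2.91-fold and 7.89%. By construction these settings test other contigs or sizes. The read share was 6.93% with TMM factors (235 contigs), 6.71% with upper-quartile factors (221), 6.31% with a pseudocount of 5 (194), 6.05% in mixed contigs alone (182) and 6.02% where the lower bound of the interval was at least 2 (171). Among settings added after seeing the data, TMM factors from long contigs gave 6.90% (232), totals over long contigs 6.20% (188), and at least 20 control reads 6.11% (186) with 2.15% singlets. These shares change only with which contigs pass a setting, as the counts behind them stay the same. With TMM or upper-quartile factors all 200 were kept and others were added. These factors raise every ratio alike, so none of the 200 could be lost. A pseudocount of 2 gave 198 contigs, and no minimum of reads or one of 100 gave 200. Those minimums could not change the count, as the lowest sum over the long contigs was 136 reads. Scaling moved the contig with the highest forskolin RPM from 5.45-fold to between 5.31 and 6.27-fold. No paired analysis was possible because there was a single library of each kind. Near 2-fold, or with few control reads, the depth did not fix a contig's fold.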

Other observations

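A step up by contig number was also present in mixed contigs under 500 bases, which are not among the 200, but without the same drop after 27500. With at least 20 summed reads, 15.3% (956 of 6264) of those numbered 20001 to 27500 were at least 2-fold higher with forskolin, against 5.93% (1661 of 27987) of the others. In these shorter contigs the share lay between 3.01% and 5.80% in the runs of 2500 numbers before 20001. It went down over the later runs, from 17.3% at 22501 to 25000 to 4.98% at 37501 to 40000. At 27501 to 30000 it was still 11.8%, against 6.06% in the long mixed contigs. Over mixed contigs of all lengths and reads, the median sum of reads was 227.5 in contigs 21751 to 22000 and 22.0 in contigs 21501 to 21750, and the median length was 198 and 112 bases. The share at least 2-fold higher was 19.2% in contigs 21751 to 22000, 22% in contigs 21501 to 21750 and 9.64% in contigs 21251 to 21500. This share was thus already higher in the run of 250 numbers before the rise in depth and length. That order rests on 1 run with no minimum of reads, and the part of depth and length in the pattern was not tested.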
